A study of Mus musculus with 18 samples.

Results

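The genes followed here encode the machinery by which a muscle fibre turns an action potential into a release of calcium: Cacna1s, Cacng1, Ryr1, Trdn, Atp2a1, Sln, Casq1, Casq2 and Pvalb. They are 9 of the 30869 gene symbols of the array, and every probe whose annotated symbol equals one of these names was taken, which gave 13 probes, 4 of them for Ryr1 and 2 for Sln. The genes were chosen by their function and by their measured signals at the neuronal stage, which were low in knockdown cells, so every comparison that uses arrays of that stage is given for them as a description with no test. Of the 9 genes, 8 were detected on all 3 arrays of at least 1 condition and Trdn was detected on none of the 18 arrays.

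In excitation-contraction coupling, the voltage-sensing L-type calcium channel of the T-tubule is coupled to the ryanodine receptor, the calcium release channel of the sarcoplasmic reticulum. Calsequestrin stores calcium inside the reticulum near the release channel, and the SERCA pump returns it from the cytosol, under the control of small inhibitory membrane peptides. Parvalbumin buffers cytosolic calcium in fast fibres and is also a well known product of a class of GABAergic interneurons.

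The arrays measured mouse ESD3 (D3) embryonic stem cells of strain 129s2/SvPas, grown on embryonic fibroblast feeder cells and differentiated toward dopaminergic neurons. Control cells carried a viral shRNA against luciferase and knockdown cells a viral shRNA against HPRT, the purine salvage enzyme hypoxanthine phosphoribosyltransferase. Per the study's methods, both lines were selected with puromycin after transduction and are not described as single clones. RNA was taken at the undifferentiated embryonic stem cell (ES) stage, the spherical neural mass (SNM) stage and the final neuronal stage, and each of the 6 conditions was run on 3 Illumina MouseWG-6 v2 arrays. RNA of replicate cultures was pooled, so the SD over 3 arrays and every p-value measure array error and leave out how cultures varied. In such pooled RNA, fewer cells of a type and less RNA per cell cannot be told apart.

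The arrays detected between 18827 and 22202 of 45281 probes at a detection p-value under 0.05, and arrays of a condition correlated with r between 0.992 and 0.997. The targeted gene, listed as Hprt1, had log2 differences of -4.09 (ES), -1.76 (SNM) and -4.45 (neuronal), knockdown minus control, at its brightest probe (limma, adjusted p = 7.15e-15, 3.86e-11 and 9.64e-17). Signals are given as background-corrected, quantile-normalized log2 values, on which the lowest detected signal of an array lay between 4.67 and 4.99. A gene was called at an adjusted p under 0.05 in limma with at least 1.5-fold between the groups, and it was tested where it was detected on all 3 arrays of a compared condition.

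Promoter sequence was at hand for 6 of the 9 genes, Ryr1, Cacna1s, Atp2a1, Casq1, Casq2 and Pvalb, with 7 start sites. The 250 bases before the start of the pump gene, both calsequestrin genes and the first Pvalb start are printed as the calcium pump and buffers of the set. They are RefSeq sequence of GRCm38.p6, read 5′ to 3′ on the strand of the gene. They come from chr7:126463074-126463323 (minus strand), chr1:172219896-172220145 (minus strand), chr3:102086165-102086414 (plus strand) and chr15:78206401-78206650 (minus strand). Capitals mark each E-box, CANNTG, the core that myogenic helix-loop-helix factors are known to bind, and each match to the consensus of MEF2, another muscle transcription factor.
Atp2a1: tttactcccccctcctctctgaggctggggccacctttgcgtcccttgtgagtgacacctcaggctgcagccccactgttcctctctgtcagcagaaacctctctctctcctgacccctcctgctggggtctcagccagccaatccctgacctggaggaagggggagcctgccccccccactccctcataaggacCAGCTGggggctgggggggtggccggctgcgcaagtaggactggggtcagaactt
Casq1: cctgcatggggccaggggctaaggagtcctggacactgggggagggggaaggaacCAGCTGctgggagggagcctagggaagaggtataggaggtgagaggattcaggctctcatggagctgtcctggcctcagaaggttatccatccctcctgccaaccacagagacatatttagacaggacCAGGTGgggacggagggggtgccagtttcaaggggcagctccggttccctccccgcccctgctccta
Casq2: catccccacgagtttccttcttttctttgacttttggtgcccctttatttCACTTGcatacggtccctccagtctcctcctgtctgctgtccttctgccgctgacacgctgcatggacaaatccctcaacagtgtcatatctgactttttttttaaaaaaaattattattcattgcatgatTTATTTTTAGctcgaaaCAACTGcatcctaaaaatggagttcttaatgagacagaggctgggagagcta
Pvalb: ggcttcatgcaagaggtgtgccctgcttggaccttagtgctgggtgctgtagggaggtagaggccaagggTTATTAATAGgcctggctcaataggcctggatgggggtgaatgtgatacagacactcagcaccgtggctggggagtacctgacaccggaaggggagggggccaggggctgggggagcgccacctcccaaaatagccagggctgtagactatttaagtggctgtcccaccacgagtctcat
The E-box form CAGCTG stood in the windows of Atp2a1 (bases -55 to -50 from the start), Casq1 (-195 to -190) and Cacna1s (-123 to -118), and 13% of the 32851 upstream windows of the table hold it on either strand. The looser form CANNTG, which includes CAGCTG, is in 66.2% of all windows, and besides these genes it stood in Casq2 and at the second Pvalb start. The MEF2 consensus, held by 2.92% of windows, matched at bases -69 to -60 of Casq2 and at -180 to -171 of the first Pvalb start, and in no other window of these genes. The window of Ryr1 held none of these letters, which says only that they are not in this stretch. Neither the consensus of serum response factor (the CArG box, 1.47% of windows) nor TATAAA (12.4%) stood in any of the 7 windows. These matches describe the sequence and are not shown to be sites.

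The 8 detected genes had their highest mean in control cells at the neuronal stage, the condition by which they were chosen. Of the rest, the highest was knockdown cells at the SNM stage for 5 genes (Cacng1, Atp2a1, Sln, Casq2 and Pvalb) and control ES cells for Ryr1 and Cacna1s. Casq1 was not detected in any of the rest, and Trdn in no condition. The plot of signals by array shows each value.

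**Figure D1:**
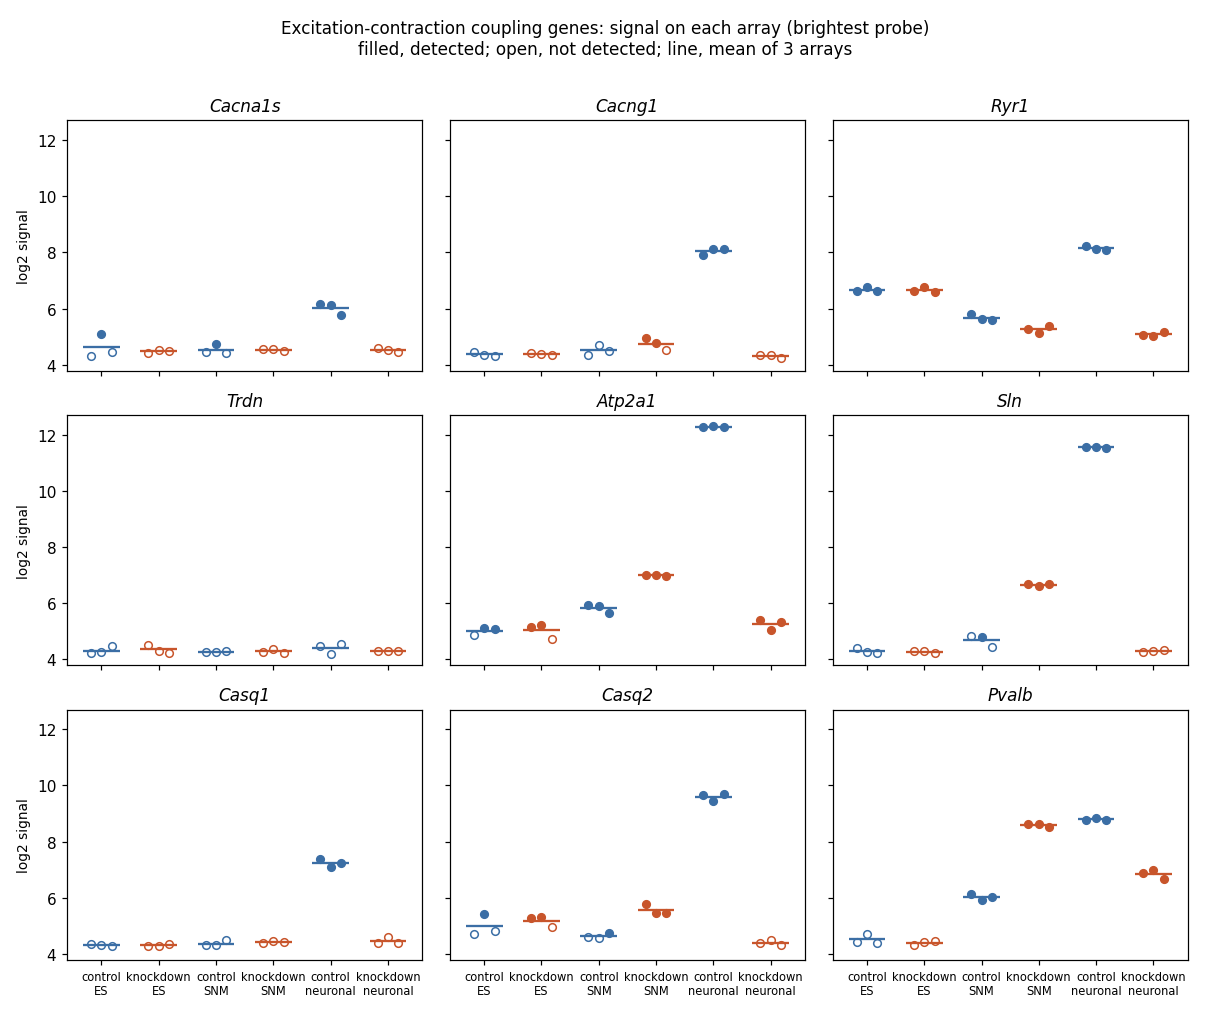
Log2 signal (y axis) of the brightest probe of each of the 9 genes on the 18 arrays, by condition (x axis). Filled points were detected, open points were not, and lines are means of 3 arrays. In control cells of the neuronal stage Atp2a1 and Sln lie above 11, whereas in knockdown cells of that stage Sln, Casq1, Casq2, Cacng1 and Cacna1s were not detected on any array.

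The first comparison asks whether the genes differed between knockdown and control cells before differentiation. At the ES stage only Ryr1, the skeletal muscle form of the release channel, was detected on all arrays of a condition and could be tested. It read 6.64, 6.76 and 6.63 in control and 6.63, 6.75 and 6.59 in knockdown cells. The arrays overlapped, and the log2 difference of -0.02 (SE 0.0807) did not pass (adjusted p = 0.936). Of all probes tested at this stage, 1.68% were called in either direction.

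The other 8 genes lay at or near background in ES cells. Atp2a1, the fast-twitch SERCA pump, was detected on 2 of 3 arrays of each line, with means of 5.01 ± 0.13 in control and 5.03 ± 0.28 in knockdown cells (SD, n = 3). Casq2, the calsequestrin known from heart and slow fibres, was detected on 1 of 3 control and 2 of 3 knockdown arrays, at 4.98 ± 0.38 and 5.18 ± 0.20. The voltage-sensor subunit gene Cacna1s was detected on 1 control array. Cacng1, Casq1, Trdn, Sln and Pvalb were detected on no ES array.

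At the SNM stage the pump Atp2a1, its inhibitor Sln and the buffers Casq2 and Pvalb ran opposite to the neuronal direction by which they were chosen: they were higher in knockdown cells. Of the 5 genes tested, 4 were called higher (Atp2a1, Sln, Casq2 and Pvalb) and 0 lower, where 11% of all probes tested were called higher and 8.9% lower. The median log2 difference of the 5 genes was 1.17, beside -0.04 over all probes tested. The 5 genes had passed the detection filter, 2 of them (Sln and Casq2) through the knockdown arrays alone. The count and the median are therefore a description.

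Atp2a1 read 5.92, 5.89 and 5.65 in control and 6.99, 7.0 and 6.97 in knockdown cells. The groups did not overlap, and knockdown cells were 1.17 higher on the log2 scale (SE 0.122, adjusted p = 8.21e-07).

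Sln encodes sarcolipin, the small peptide that inhibits the SERCA pump. It read 4.83, 4.81 and 4.43 in control cells, of which only the second array detected it, and 6.67, 6.60 and 6.67 in knockdown cells, all detected. Knockdown arrays lay above every control array, by a log2 difference of 1.96 (SE 0.0841, adjusted p = 3.03e-11). The second Sln probe was not detected on any of the 18 arrays and so gave no level.

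Pvalb had the largest SNM difference of the 9 genes. Its control arrays read 6.13, 5.92 and 6.03 and its knockdown arrays 8.63, 8.62 and 8.51, all detected and far apart. In the deposited signals, before any correction, these were 119, 112 and 119 against 467, 439 and 473. The log2 difference was 2.56 (SE 0.0932, adjusted p = 4.32e-12).

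Casq2 read 4.59, 4.56 and 4.76 in control cells, detected on 1 array, and 5.79, 5.46 and 5.44 in knockdown cells, detected on all. The groups did not overlap, and the log2 difference was 0.93 (SE 0.155, adjusted p = 1.13e-04). It was under 1.5-fold without background correction (0.41 after quantile normalization of the raw signals, 0.46 after scaling to the 75th percentile) and with an offset of 50 (0.47).

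Ryr1 moved the other way by a small amount. Control arrays read 5.81, 5.61 and 5.57 and knockdown arrays 5.27, 5.13 and 5.38, with no overlap. The log2 difference of -0.41 (SE 0.0807, adjusted p = 5.33e-04) was under 1.5-fold and was not called. The other Ryr1 probes that were detected differed by -0.43 and -0.40 (adjusted p = 0.0168 and 0.0107), and the arrays of the latter overlapped.

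The voltage sensor could not be tested at this stage. Cacng1, the gamma subunit of the skeletal muscle channel, was detected on 2 of 3 knockdown and 0 of 3 control arrays, at 4.75 ± 0.20 and 4.52 ± 0.18 (SD, n = 3), and its arrays overlapped. Cacna1s was detected on 1 control array. Casq1, the fast-fibre calsequestrin, and Trdn, the triadin that ties calsequestrin to the release channel, were detected on no SNM array.

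**Figure D2:**
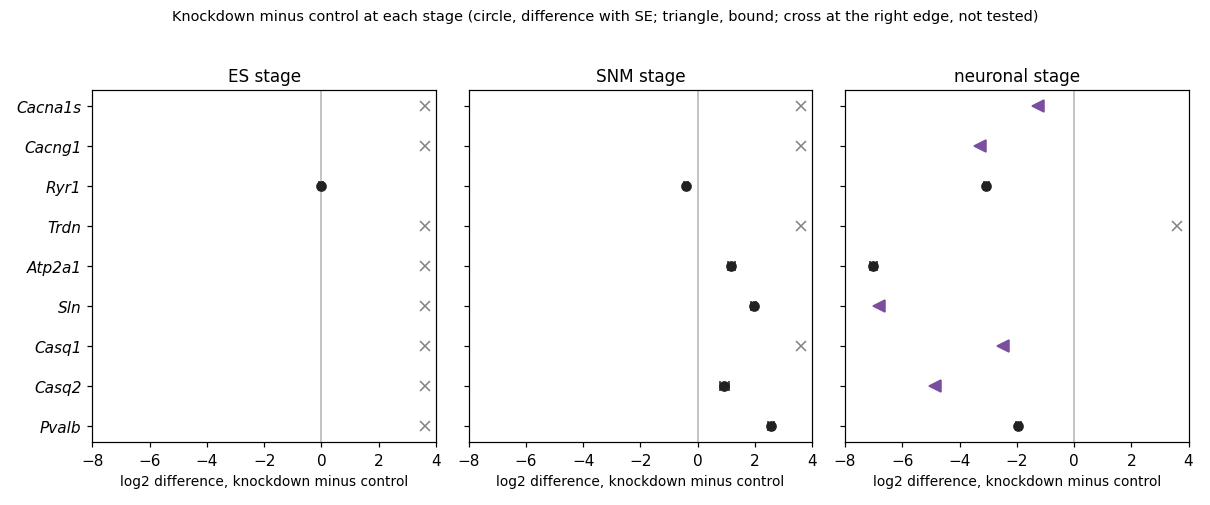
Log2 difference of knockdown minus control cells (x axis) for the brightest probe of each gene at the 3 stages, as circles with the SE of the fit, triangles where one condition was not detected and the value is a bound, and crosses at the right edge where the gene was not tested. Atp2a1, Sln, Casq2 and Pvalb lie right of 0 at the SNM stage (0.93 to 2.56) and left of 0 at the neuronal stage.

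The knockdown effect at the SNM stage was then set against that at the ES stage in a test of the difference itself. Of 5 genes tested, 4 passed and were higher at the SNM stage (11.7% of all probes tested). All 4 entered the test through SNM arrays, and Sln and Casq2 through those of knockdown cells alone, so the count is a description. The differences between effects were 2.67 for Pvalb (SE 0.132, adjusted p = 4.15e-10), 1.98 for Sln (SE 0.119, adjusted p = 4.16e-09), 1.14 for Atp2a1 (SE 0.172, adjusted p = 7.41e-05) and 0.73 for Casq2 (SE 0.219, adjusted p = 0.0148). Pvalb and Sln were below background in ES cells of both lines. The Casq2 value was 0.51, under 1.5-fold, without the second control ES array, and was also under 1.5-fold without background correction (0.33 after quantile normalization, 0.45 after scaling to the 75th percentile) and with an offset of 50 (0.37). For Ryr1 the difference of -0.39 (adjusted p = 0.0125) was under 1.5-fold. This test and that at the SNM stage share the SNM arrays.

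Within each line, the genes also moved between the ES and SNM stages. In control cells 3 genes were tested: 2 rose (23.7% of all probes tested rose) and 1 fell (25.4%). In knockdown cells 5 were tested: 3 rose (26.4%) and 1 fell (30.9%). The genes that rose had passed the detection filter only through the SNM arrays, so these counts are a description too. The gene that fell in both lines was Ryr1, with log2 differences of -1.01 in control (SE 0.0807, adjusted p = 9.23e-09) and -1.40 in knockdown cells (adjusted p = 1.04e-10). Both other detected Ryr1 probes fell as well, with differences of -1.12 and -1.21 in control cells and -1.56 and -1.58 in knockdown cells.

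Atp2a1 rose between these stages by 0.81 in control (SE 0.122, adjusted p = 1.55e-05) and by 1.95 in knockdown cells (adjusted p = 2.82e-10). Pvalb, not detected in ES cells, rose at least 2.23-fold in control (adjusted p = 3.47e-10) and at least 12.6-fold in knockdown cells (adjusted p = 6.14e-16). In knockdown cells Sln rose at least 3.29-fold (adjusted p = 1.93e-13) and could not be tested in control cells. Casq2 differed by 0.38 in knockdown cells (adjusted p = 0.032), under 1.5-fold. In control cells the rise of Atp2a1 was under 1.5-fold without background correction (0.38 after quantile normalization, 0.18 after scaling to the 75th percentile) and with an offset of 50 (0.45), and that of Pvalb after scaling to the 75th percentile (0.48).

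At the neuronal stage 8 of the 9 genes were measured in control cells, and in each of them every knockdown array lay below every control array. Across all probes tested, 13.5% were called lower and 30.9% had knockdown arrays entirely below control arrays at this stage. These are the values by which the genes were chosen and nothing is read from the count. The median log2 difference of the 8 genes was -3.39, or -3.18 with genes below background at their bound, beside 0.01 over all probes tested.

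Of the voltage sensor, Cacna1s, the pore-forming subunit, read 6.14, 6.12 and 5.77 in control cells and was not detected in knockdown cells, at least 2.41-fold lower. Cacng1 read 7.90, 8.11 and 8.12 in control cells and was not detected in knockdown cells, at least 9.82-fold lower. Neither probe overlapped between the lines.

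Ryr1 read 8.23, 8.13 and 8.08 in control and 5.06, 5.01 and 5.18 in knockdown cells, a log2 difference of -3.06. Unlike most of the others, it was still detected on all 3 knockdown arrays. Of its other probes, 1 differed by -3.32, 1 was at least 10.7-fold lower, and the fourth was not detected on any of the 18 arrays and carried none of the pattern. The plot of the 4 Ryr1 probes sets them side by side. Trdn, on a probe to a predicted transcript, was not detected on any array of either line, so nothing can be said of it.

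**Figure D3:**
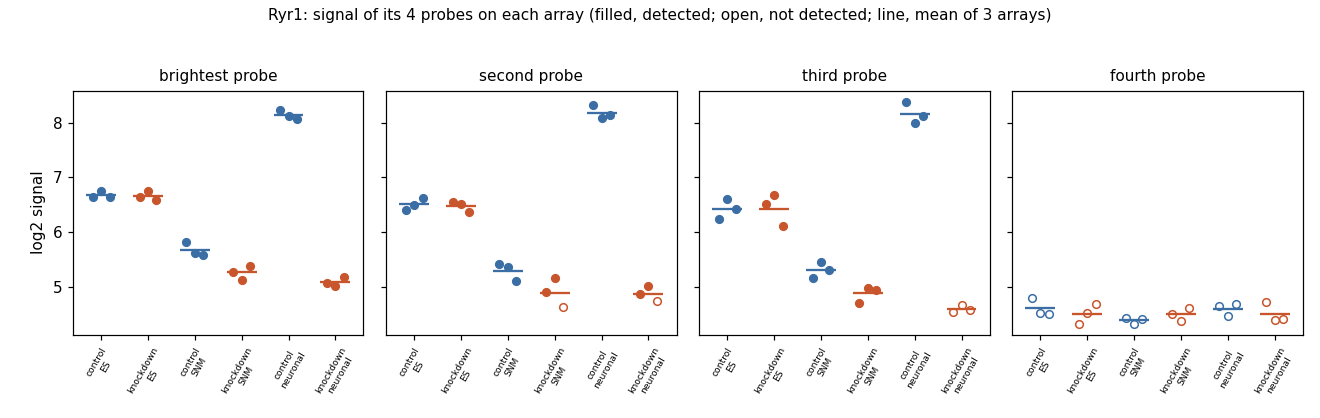
Log2 signal (y axis) of the 4 Ryr1 probes on the 18 arrays by condition (x axis), ordered by their mean. Filled points were detected, open points were not, and lines are means of 3 arrays. In 3 probes control neuronal cells are highest and both ES conditions next, and the fourth stays between 4.32 and 4.79 on all arrays.

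The pump and its inhibitor had the largest contrast. Atp2a1 read 12.28, 12.29 and 12.27 in control and 5.41, 5.06 and 5.33 in knockdown cells, a log2 difference of -7.01 or 129-fold. As deposited, these were signals of 5247, 4301 and 5068 against 89.4, 78.1 and 92.9. Sln read 11.56, 11.57 and 11.52 in control cells and was not detected in knockdown cells, at least 112-fold lower. Without background correction the log2 difference of Atp2a1 was -5.85 after quantile normalization and -5.78 after scaling to the 75th percentile. That of Sln, -7.25 with knockdown signals below background taken as fitted, was -5.67 and -5.60.

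Among the calcium buffers, Casq2 read 9.64, 9.43 and 9.70 in control cells and was not detected in knockdown cells, at least 28.8-fold lower. Casq1 read 7.37, 7.10 and 7.23 and was not detected in knockdown cells, at least 5.62-fold lower. Pvalb differed least of the measured buffers, at 8.77, 8.84 and 8.76 in control and 6.88, 6.99 and 6.67 in knockdown cells, a log2 difference of -1.94. It was the only buffer still detected in knockdown cells of this stage.

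The course from the SNM to the neuronal stage ran in opposite directions for the pump, sarcolipin, Casq2 and Pvalb in the lines, again as a description. In control cells Atp2a1 was 6.46 higher at the neuronal than at the SNM stage, Sln 6.86, Casq2 4.95 and Pvalb 2.76. In knockdown cells the log2 differences were -1.72 for Atp2a1 and -1.74 for Pvalb, and Sln was at least 3.74-fold and Casq2 at least 1.77-fold lower. Ryr1 was 2.48 higher in control cells and differed by -0.18, with overlapping arrays, in knockdown cells.

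Ordered by mean, the 6 conditions were separated from their neighbours to different degrees. For Atp2a1 the order was control neuronal, knockdown SNM, control SNM, knockdown neuronal, knockdown ES and control ES, and the arrays of the last 3 overlapped from one neighbour to the next. For Pvalb, knockdown SNM cells (8.59 ± 0.07) stood just below control neuronal cells (8.79 ± 0.04), without overlap, and only both ES conditions overlapped. For Sln and Casq2, 2 pairs of neighbours overlapped, none of them with control neuronal or knockdown SNM cells. For Ryr1 the overlapping neighbours were both ES conditions, and knockdown SNM with knockdown neuronal cells. Cacna1s, Cacng1 and Casq1 stood above their neighbours only in control neuronal cells.

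Across the 18 arrays, the profile of a gene was compared with the mean log2 profile of the 9 genes, as a description whose points share conditions and RNA pools. These arrays include those of the neuronal stage, by whose signals the genes were chosen. Control arrays of that stage held the highest means of the detected genes, so the ranking is not independent of the choice. Pearson's r was 0.997 for Atp2a1, 0.995 for Sln, 0.987 for Cacng1, 0.982 for Casq2, 0.973 for Casq1 and 0.932 for Cacna1s. It was lower for Pvalb (0.725), Ryr1 (0.711) and Trdn (0.305). Each of the 9 genes is itself part of that mean. Among 16247 other genes, the 10 most like it were Kbtbd10 (0.996), Asb2 (0.995), Ankrd2 (0.994), Myom1, Ablim3, Tnni2 and Myog (each 0.993), Hak-pending (0.992), LOC100046690 (0.991) and Tnni1 (0.99). Of these, 4 stand on the list of skeletal muscle markers described next: Myog, a myogenic transcription factor, Myom1, a protein of the sarcomere's M-band, and the troponin I genes Tnni1 and Tnni2.

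Markers of skeletal muscle moved with the coupling genes. The summed signal of 31 skeletal muscle markers was 3140 to 3260 in control and 5540 to 5930 in knockdown SNM cells. Of 21 markers tested, 14 were called higher in knockdown cells, where 11% of all probes tested were. All 21 were detected on every knockdown SNM array and 16 of them on every control array. At the neuronal stage the sum was 128000 to 130000 in control and 611 to 863 in knockdown cells. Of 30 markers tested, 29 were called lower, where 13.5% of all probes tested were. Of the 30, 17 were detected on no knockdown array and passed the filter through control arrays alone, so these counts are a description. For the marker lists below, the shares of all probes called were 1.68% in either direction (ES), 11% higher (SNM) and 13.5% lower (neuronal). Of the 3 brightest markers, the myosin light chain Mylpf was 0.96 higher at the SNM stage (adjusted p = 2.71e-07), whereas Acta1 and Myl1 differed by 0.23 and 0.66 (adjusted p = 0.285 and 0.13). At the neuronal stage their log2 differences were -7.22 (Mylpf), -8.03 (Acta1) and -7.64 (Myl1), and 18 of the 31 markers, Myod1, Myog and Ckm among them, were detected on no knockdown array of that stage. The part of these markers in the results was not tested.

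**Figure D4:**
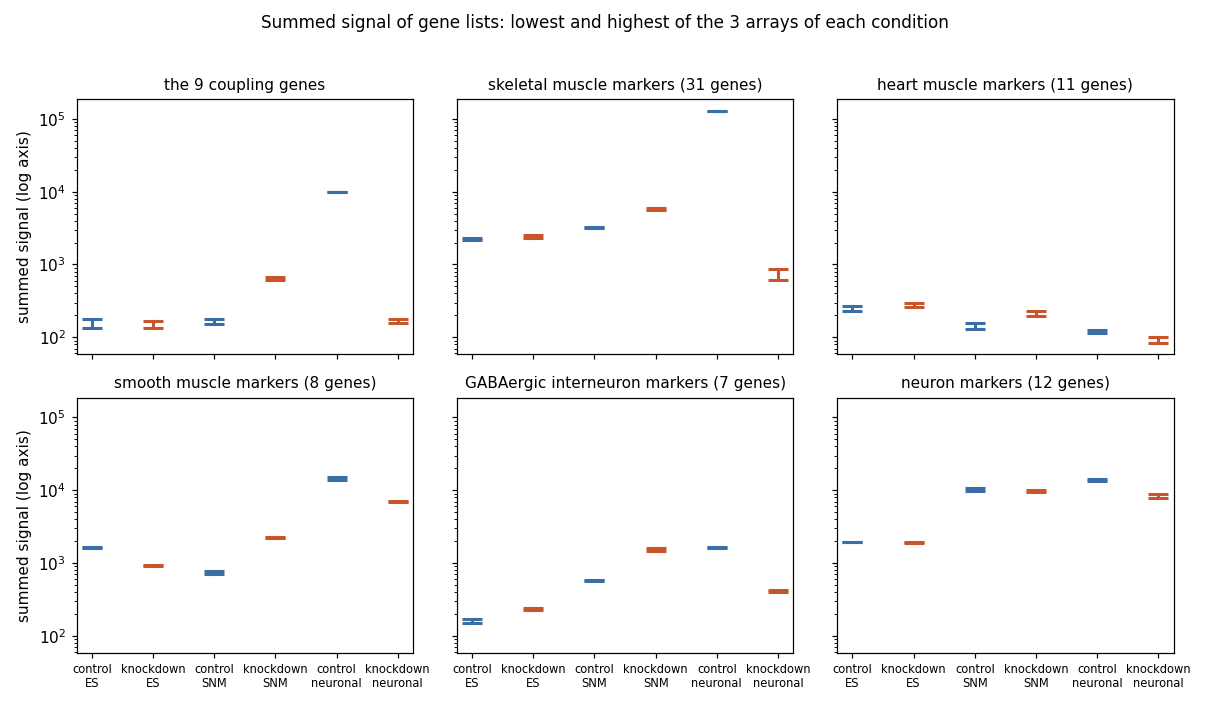
Summed background-corrected signal, above the offset (y axis, log scale), of the 9 coupling genes and of 5 marker lists, as the lowest and highest of 3 arrays in each condition (x axis). The coupling genes stand at 154 to 177 in control and 618 to 670 in knockdown SNM cells and at 9760 to 9870 in control and 156 to 178 in knockdown neuronal cells, and the skeletal muscle markers are likewise higher in knockdown cells at the SNM and in control cells at the neuronal stage.

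Casq2 and Sln are also known from heart muscle. The summed signal of 11 heart muscle markers was 128 to 156 in control and 199 to 227 in knockdown SNM cells, where 1 of 4 markers tested, the natriuretic peptide gene Nppa, was called higher. In control neuronal cells, where the coupling genes were highest, the sum was 115 to 126, and 7 of the 11 markers were detected on no array. In both ES conditions it was 229 to 296, with Nppb the brightest marker (means of 7.5 in control and 7.7 in knockdown cells). The cardiac factor Nkx2-5 (mean 5.09) and the connexin gene Gja5 (5.28) were detected on all 3 control neuronal arrays. Nkx2-5 was likewise detected on all 3 knockdown neuronal arrays (mean 5.07). Gja5 was detected on 1 of 3 knockdown neuronal arrays (4.80) and on all 3 of knockdown SNM cells (5.21). Among markers detected on all arrays of control neuronal or ES cells, Nkx2-5, Gja5 and Myh6 had higher means in control neuronal than in ES cells of either line. Nppb and Myl7 had lower ones. The transcription factors Tbx5 and Tbx20 and the pacemaker channel Hcn4 were detected on none of the 18 arrays. Of the 3 brightest, Nppb was detected on 1 and Myl7 on 0 of 3 control neuronal arrays, and Myh6, the alpha myosin heavy chain, was detected on 3 (mean 5.65) and at least 1.87-fold lower in knockdown cells (adjusted p = 5.38e-05). Of 8 smooth muscle markers, 2 of 3 tested were called lower in knockdown cells at the ES stage (summed signal 1610 to 1650 in control and 919 to 928 in knockdown cells), 1 of 3 tested was called higher at the SNM stage (summed signal 698 to 784 in control and 2220 to 2310 in knockdown cells) and 3 of 4 lower at the neuronal stage (14000 to 15000 and 6970 to 7070). Their part in the results was not tested.

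GABAergic interneuron markers were set beside Pvalb. Their summed signal was 561 to 586 in control and 1450 to 1600 in knockdown SNM cells, and 1610 to 1670 in control and 401 to 421 in knockdown neuronal cells. Of 7 markers, 3 were tested and called higher at the SNM stage: Gad1, which makes GABA, by 1.98 (adjusted p = 2.32e-12), the vesicular transporter Slc32a1 by 0.78 (adjusted p = 2.36e-04) and the potassium channel Kcnc1 by 0.93 (adjusted p = 3.88e-06). At the neuronal stage 2 of these 3, Gad1 and Slc32a1, were called lower. Pvalb was higher in knockdown neuronal than in control SNM cells. Kcnc1 was higher there too (means of 7.41 and 6.95), and Gad1 (7.51 and 7.75) and Slc32a1 (6.42 and 8.05) were lower. At the ES stage Gad1 was 0.72 higher in knockdown cells (adjusted p = 1.14e-05), and Pvalb was not detected. Gad2, Syt2 and Erbb4 were detected on none of the 18 arrays, and Lhx6 on 2 arrays of knockdown SNM cells alone. The part of these markers in the Pvalb values was not tested.

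The labels call the last stage neuronal. Of 12 neuron markers, 10 were detected on all arrays in control and 9 in knockdown cells of that stage, with summed signals of 13200 to 14500 and 7740 to 8990. At the ES stage 7 neuron markers were already detected on all arrays in each line. Of the skeletal muscle markers, 12 were in control and 11 in knockdown ES cells. At the neuronal stage control cells showed markers of both sets, with 30 of 31 skeletal muscle markers detected on all 3 arrays. The 7 fibroblast markers were detected on all arrays of both lines there, at 20200 to 23500 in control and 10400 to 13800 in knockdown cells, and at 5810 to 6410 and 6650 to 8240 at the SNM stage. The 6 markers of pluripotent cells summed to 9570 to 9890 in control and 3760 to 4110 in knockdown neuronal cells, beside 47000 to 50500 in ES cells. The part of either list in the results was not tested.

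A list of 38 further genes of calcium handling and the muscle triad was assembled for function, with it known that muscle genes were low in knockdown neuronal cells. At the ES stage limma called 0 of 21 tested, of which 5 had an unadjusted p under 0.05 with changes under 1.5-fold, and the methods' t-test also called 0. At the SNM stage 6 of 23 tested were higher (11% of all probes tested were) and 0 lower (8.9%), with a median of 0.26. At the neuronal stage 2 of 29 were higher (13.9%) and 17 lower (13.5%), with a median of -0.99. Some of the lower genes, Cav3 among them, were detected on no knockdown array and passed the filter through control arrays alone. Ryr3, higher at the SNM stage, passed through knockdown arrays alone. These counts are therefore a description. The plot of these genes gives each difference.

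**Figure D5:**
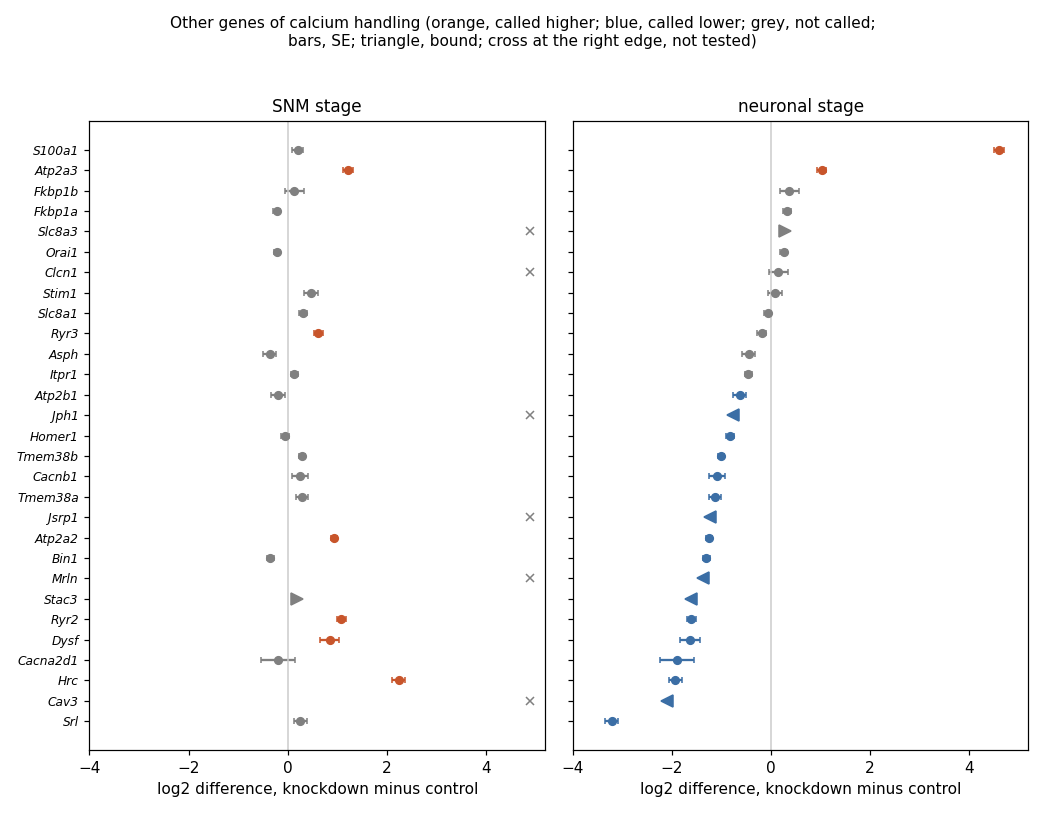
Log2 difference of knockdown minus control cells (x axis) at the SNM and neuronal stages for the 29 further calcium-handling genes tested at the neuronal stage. Bars are the SE of the fit, triangles are bounds, crosses at the right edge were not tested, and colour marks a call. Most neuronal values lie left of 0, with S100a1 (4.61) and Atp2a3 (1.02) to the right.

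The 4 genes called lower at the neuronal stage by the most were Srl, Cav3, Hrc and Cacna2d1. Srl, the lumenal sarcalumenin, fell by 3.22 (adjusted p = 3.78e-12). Cav3, the muscle caveolin of developing T-tubules, was at least 4.29-fold lower (adjusted p = 9.67e-11). Hrc, a histidine-rich calcium-binding protein of the reticulum lumen, was 1.93 lower (adjusted p = 2.67e-09). Cacna2d1, the accessory alpha-2/delta subunit of calcium channels, was 1.90 lower (adjusted p = 1.43e-04). Its second probe was 0.72 lower (adjusted p = 3.72e-04) and its remaining probe was not detected on any array of that stage. The second Srl probe was at least 3.42-fold lower at the neuronal stage and differed by -0.25 at the SNM stage, where the first differed by 0.26, both under 1.5-fold.

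Both genes called higher are not restricted to muscle. S100a1, a calcium-binding protein also found in brain, was 8.16 ± 0.23 in control and 12.77 ± 0.10 in knockdown cells, 4.61 higher (adjusted p = 2.56e-15). Atp2a3, the SERCA pump of non-muscle cells, was 1.02 higher (adjusted p = 1.74e-07), and its second detected probe differed by 0.51 (adjusted p = 0.00489), under 1.5-fold.

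At the SNM stage, Hrc was 2.25 higher in knockdown than in control cells (adjusted p = 1.12e-09) and Atp2a3 1.22 higher (adjusted p = 4.6e-08). Ryr2, the cardiac and brain release channel, was 1.09 higher (adjusted p = 8.76e-08). Atp2a2, the pump of slow and cardiac muscle and of most other cells, was 0.94 higher (adjusted p = 4.18e-09). The 3 other probes of Ryr2 were not detected at that stage, and the second Atp2a2 probe differed by 0.98. The second detected Atp2a3 probe, detected on 2 of 3 control arrays, differed less, by 0.70 (adjusted p = 5.02e-04). Of the 6 genes called higher at the SNM stage, 4 were called lower at the neuronal stage (Hrc, Dysf, Atp2a2 and Ryr2), 1 was higher at both (Atp2a3) and Ryr3 was not called at the neuronal stage. Dysf and Ryr3 are named after their values were seen.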

How the data were processed

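RNA of replicate cultures was pooled per condition and hybridised to 3 Illumina arrays. The deposited intensities are average bead signals, which the authors left without background subtraction or scaling between arrays in this table. The deposited detection p-values give the share of negative control beads brighter than a probe. Symbols were read from the second deposited table. Its 72 columns of values are named by chip position, could not be mapped to samples and were not used.

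Signals were corrected for background from the detection p-values, offset by 16, quantile-normalized and put on the log2 scale (neqc, limma 3.58.1, R 4.3.3). The offset pulls log2 differences of dim probes toward 0. All 18 arrays were fitted with the 6 conditions (lmFit, eBayes, two-sided), and p-values were adjusted by Benjamini-Hochberg over all probes tested, those detected (p under 0.05) on all 3 arrays of a compared condition. Calls needed an adjusted p under 0.05 and 1.5-fold. The fit was tested on simulated data. No count or depth exists for arrays, and their number limits the precision.

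A gene is represented by its brightest probe over the 18 arrays, and probes that disagree are given. Where a probe was not detected on any array of one condition, the difference is a bound against the lowest detected signal of each array, computed from means of log2 values. Summed list levels add the signals above the offset. Microarray probe positions within genes were not used here.

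The members and all lists were chosen with earlier results of these data known. Genes named beyond the members are, by rule, the 4 of the further calcium-handling genes with the largest called difference in each direction at the neuronal stage, up to 4 of them called at an earlier stage, the 3 brightest of each marker list and the 10 genes most like the members' mean. Not all of these are printed. Myod1, Ckm, Nppa, Nkx2-5, Gja5, Tbx5, Tbx20, Hcn4, Gad2, Lhx6, Syt2, Erbb4, Dysf and Ryr3 lie outside this rule and were named after their values were seen.

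Alternatives were other background corrections, scalings and offsets, no detection filter, a 2-fold minimum, the mean of all probes of a gene, the conditions compared alone, array number as a block, the methods' t-test and leaving out each array. The array numbers of the titles paired arrays of both lines at the SNM stage, where the deviations of same-numbered arrays from their condition means correlated by 0.518, 0.107 and 0.507. They did not at the ES stage (-0.128, -0.011 and 0.113) or in full at the neuronal stage (0.637, 0.0921 and 0.348).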

Additional observations from a re-analysis of the deposited data

Results flagged for a closer look

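The knockdown effect differed between the SNM and ES stages in a test of the difference (limma, 3 arrays per condition) for 4 of the coupling genes, by log2 differences of 1.14 (Atp2a1), 0.73 (Casq2), 1.98 (Sln) and 2.67 (Pvalb). All 4 entered the test through SNM arrays, and Sln and Casq2 through those of knockdown cells alone, so the count is a description. Sln and Pvalb were below background in ES cells of both lines. The Casq2 value was under 1.5-fold without the second control ES array.

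The effect also had opposite directions at the SNM and neuronal stages on every array for these 4 genes. The neuronal minus SNM differences were -8.18 for Atp2a1, -6.11 for Casq2, -9.21 for Sln and -4.51 for Pvalb. Sln and Casq2 were not detected in knockdown neuronal cells, so their values rest on fitted signals below background and are not measured sizes. Since the neuronal values chose the genes, the difference was not tested.

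Among the further calcium-handling genes such tests passed for several named genes. These genes were named by their differences at the SNM or neuronal stage, which enter the tests, so the values are a description. The SNM effect exceeded the ES effect by 1.74 for Hrc, 1.02 for Atp2a2, 1.12 for Atp2a3 and 1.04 for Ryr2. The neuronal effect minus the SNM effect was -3.48 for Srl, -4.18 for Hrc, -2.39 for Cav3, -1.71 for Cacna2d1, -2.20 for Atp2a2, -2.69 for Ryr2 and 4.41 for S100a1. Cav3 was detected in control neuronal cells alone among these 4 conditions, so its value rests on fitted signals below background.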

How the results depend on the processing

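The Ryr1 difference at the ES stage, not called (-0.02), turned sign with no scaling between arrays (0.06) and when single arrays were left out (-0.06 to 0.02), and no other result changed direction under the alternatives run. The median neuronal difference of the coupling genes (-3.39) was -2.18 with quantile normalization and -2.26 with scaling to the 75th percentile, both without background correction, -3.48 with no scaling between arrays, -2.34 with an offset of 50, -3.06 with no detection filter, -3.23 with the mean of all probes, and between -3.41 and -3.38 when each array was left out. Scaling to the 75th percentile left 1 of the 3 coupling genes called between the ES and SNM stages in control cells, and quantile normalization without background correction and an offset of 50 left 2 each. The 4 genes called at the SNM stage stayed 4 when any array was left out and were 3 under either setting that omits background correction, an offset of 50 or a 2-fold minimum. The test of SNM against ES effects gave 3 to 4, with 3 without the second control ES array, and 3 under either setting that omits background correction, an offset of 50 or a 2-fold minimum. Of the further genes, 6 called at the SNM stage became 3 with a 2-fold minimum and 3 with the mean of all probes, 4 under either setting that omits background correction or an offset of 50, and 5 to 6 when an array was left out. At the ES stage 0 to 1 were called, 1 without the third knockdown ES array, and at the neuronal stage 18 to 20. There 19 became 15 with quantile normalization and 16 with percentile scaling of uncorrected signals, and 17 with an offset of 50. With array number as a block, the pairing at the SNM stage changed no count: 4 coupling genes at the SNM stage and 4 for the difference of effects, 3 and 4 between stages, and 0, 6 and 19 further genes. The methods' t-test gave 4 coupling genes at the SNM stage and 0, 6 and 19 further genes, unadjusted and after Benjamini-Hochberg. Casq2, Sln and the voltage-sensor genes lie near background before the neuronal stage, where background correction sets the size of a difference. The causes of these changes were not tested.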
